A study of Drosophila melanogaster with 15 samples.

Results

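The genes described here bear the names of proteins of the cytoplasmic ribosome of Drosophila melanogaster. They were chosen by symbol: every gene of the annotation whose name begins with RpL or RpS followed by a digit or a P. The rule found 92 genes of 17698, and they stood in 92 separate transcription units of 15991. All 92 were typed as protein-coding in RefSeq, 54 with names of the large subunit (RpL, RpLP) and 38 with names of the small subunit (RpS). Of the 92 symbols, 5 end in -like (RpL7-like, RpL22-like, RpL24-like, RpLP0-like and RpS28-like). The rule reads names alone, so these 5 were kept.

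The series profiled nascent transcription by mNET-seq, which sequences RNA held by engaged RNA polymerase, in embryos at stage 15. The labels place 15 samples in 4 groups: 4 female MOF, 4 male MOF, 4 female Control and 3 male Control samples. MOF embryos carried UAS-mof RNAi for maternal depletion of mof, Control embryos a control RNAi, and both were sorted into males and females. Flies were kept at 25 °C and each preparation pooled 6000 embryos, and the sources used here do not give the driver of the RNAi. The data used here are the authors' map of transcription units on dm6, which holds no value of any sample. Depth is therefore unknown, MOF was not compared with Control nor males with females, and cell type could not be checked against markers. Every value below is a length, a position or a count from that map or from RefSeq gene models, or a synonym listed in RefSeq. Differences between sets of units are descriptions that were not tested, since units of a map are not replicates.

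A ribosome is built from ribosomal RNA and one copy of nearly every ribosomal protein, with the acidic stalk proteins as the known exception. Ribosomal protein genes are among the most strongly transcribed genes of growing cells, and in flies loss of one copy of many of them gives the Minute phenotype of slow development and short bristles. Small nucleolar RNAs (snoRNAs) direct the methylation or pseudouridylation of ribosomal RNA, and many are cut from introns of ribosomal protein transcripts. MOF is the histone acetyltransferase of the male-specific lethal complex, through which males transcribe their one X more strongly.

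Units of ribosomal protein genes were short. Their median length was 1325.5 bp, with quartiles of 982.5 and 1748.25 bp and a range of 304 to 4677 bp. The other 12959 units with a coding gene had a median of 2255 bp and quartiles of 1211 and 5330 bp, and all other 15899 units had a median of 1826 bp. Of the 92 members, 80 were shorter than the median of the other coding units and 12 were longer. Long units were scarce: 3 members (3.26%) exceeded 3000 bp, against 39.7% of other coding units. At the short end the sets were closer, with 24 members (26.1%) under 1000 bp against 18.4% of other coding units. Units of 1 gene showed the same order, with a median of 1119 bp over 59 members and 2087 bp over 11900 other coding units.

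**Figure D1:**
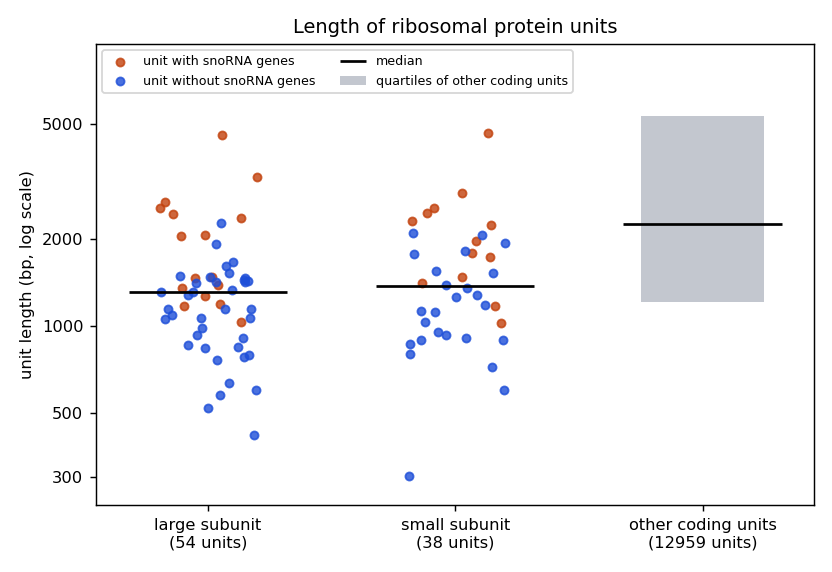
Unit length in bp on a log axis, with 1 point per large-subunit or small-subunit unit coloured by whether it holds snoRNA genes, lines at the medians, and a bar for the quartiles of other coding units. The members lie between 304 and 4677 bp with a median of 1325.5 bp, against a median of 2255 bp for the other coding units.

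The 3 members over 3000 bp all carried snoRNA genes. RpS5a, a protein of the small-subunit head, had the longest unit at 4677 bp (X from 17143588 to 17148264, minus strand). RpL5, which binds 5S ribosomal RNA together with RpL11, followed at 4606 bp (2L from 22532279 to 22536884, minus strand). RpL3, a core protein near the peptidyl transferase centre, spanned 3280 bp (3R from 11221894 to 11225173, plus strand). RpS6, the substrate of S6 kinase, and RpL17, which lines the exit tunnel, came next at 2894 and 2702 bp. The shortest unit was that of RpS28a, at 304 bp (3R from 30022345 to 30022648, minus strand). RpL37b had 422 bp, and RpL41 and RpL39, which encode very small proteins, had 520 and 579 bp. RpLP2, a stalk protein, and RpS10a each had 604 bp.

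The annotation gave a median of 3 transcripts per member unit (range 1 to 18), against 2 for other coding units. Units with 1 transcript were scarce among members, 15 of 92 (16.3%), against 47.2% of other coding units. These counts include transcripts of every gene in the unit. The 18 transcripts of RpS5a include those of its 14 snoRNA genes, and RpL28 and RpS7 had 11 each, also with snoRNA genes. RpL15 and RpL17 had 9 each. Counting RefSeq transcripts of the ribosomal protein gene alone, the median was 2 for members and 2 for other coding genes, so the higher median per unit did not carry over. Single-transcript genes nevertheless made up 25.0% of members (23) against 49.5% of other coding genes. RpL15 had the most with 8, RpL28 had 6, and RpL17, RpL36, RpL7A, RpS15Aa, RpS19a, RpS21 and RpS26 had 5 each.

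Units of the large and the small subunit were of like length. The median was 1315 bp for the large subunit (quartiles 1001.75 and 1494.5 bp) and 1376 bp for the small subunit (quartiles 976.75 and 1914.5 bp), a difference of -0.065 on the log2 scale. In units of 1 gene the sign turned, with 1146 bp over 37 large-subunit units and 1079 bp over 22 small-subunit units (0.087 on the log2 scale). Hosts of snoRNA genes made up 29.6% of the large subunit (16 units) and 34.2% of the small subunit (13 units). The X held 6 large-subunit members (11.1%) and 8 small-subunit members (21.1%). Among the stalk genes, RpLP0, which anchors the stalk, had 1621 bp on 3L, while RpLP1 had 913 bp on 2L and RpLP2 604 bp on 2R. RpS27A and RpL40, both made as fusions with ubiquitin, had 2105 and 863 bp, both on 2L.

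Members were spread over every arm but the Y. Arm 3R held 23, 2R held 21, 2L held 19, and X and 3L held 14 each. The X share of 15.2% of members stood beside 15.5% of other coding units. The widest gap was on 3L, with 15.2% of members and 19.6% of other coding units. Chromosome 4 carried RpS3A alone (65225 to 67207, minus strand, 1983 bp), a protein of the platform side of the small subunit. The plus strand held 45.7% of members.

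**Figure D2:**
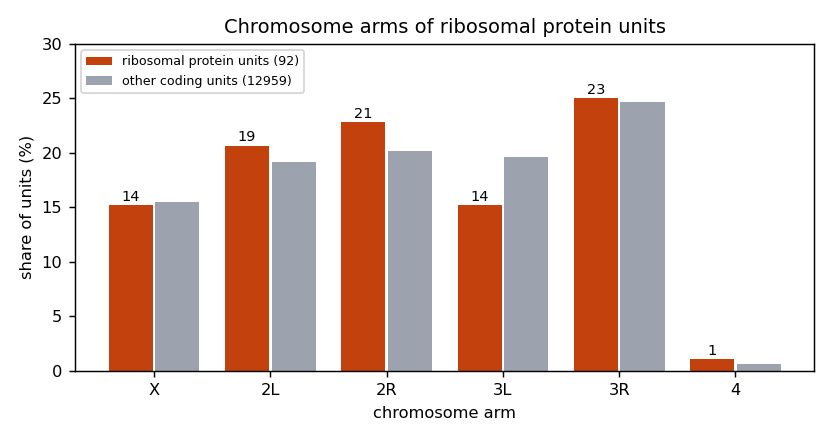
Share in percent of the 92 member units and of other coding units on each chromosome arm, with the number of members above each bar. The X holds 14 members, 15.2% of the set, against 15.5% of other coding units.

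The X is the chromosome on which dosage compensation acts. Its 14 members had a median length of 1637 bp and a median of 4.5 transcripts, against 1300 bp and 3 transcripts for the 78 members elsewhere. These transcripts are those of the whole unit, snoRNA genes included: RpS5a had 18, of which 4 were its own in RefSeq. Other coding units on X are not given here, so whether the difference is particular to members was not tested. RpS5a, RpS6 and RpL17, given above, were the longest members on X. RpL22 had 2571 bp, RpL7A 2452 bp, RpS15Aa 2069 bp, RpS10b 1776 bp and RpL37a 1498 bp. RpS19a had 1356 bp, RpL35 1147 bp, RpL36 1146 bp and RpS28b 1039 bp. The shortest on X were RpS14a at 936 bp and RpS14b at 895 bp. Of the 14, 9 (64.3%) had a paralogue in the set by name, against 18 of 78 (23.1%) elsewhere.

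Distances between members were measured without a like measure for other units, so no clustering or spacing is read from them. The median distance from a member's start to that of the nearest other member on its chromosome was 321753 bp (range 1156 to 5070735 bp, n = 91). In 10 pairs the starts were under 50000 bp apart. RpS14a (X from 7933742 to 7934677) and RpS14b (X from 7934898 to 7935792) lay in tandem on the plus strand, 1156 bp from start to start, with a gap of 220 bp and no unit between them. RpL12, a protein at the base of the stalk (2R from 24060378 to 24061860, plus strand), and RpL39 (2R from 24061853 to 24062431, minus strand) faced each other, and their last 8 bp overlapped. RpS25 and RpL3 were 5607 bp apart, RpS15 and RpLP2 14899 bp, and RpS12 and RpS4 18404 bp. RpS28a and RpL32, the gene long used as the rp49 control, were 23513 bp apart, RpS20 and RpS30 28335 bp, and RpS16 and RpS24 35674 bp. RpS6 lay 32411 bp from RpS14a and 33567 bp from RpS14b.

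Many members shared their unit with snoRNA genes. Of 92 member units, 29 (31.5%) held at least 1 snoRNA gene, against 79 of the other coding units (0.610%). Together they held 73 of the 288 snoRNA and scaRNA genes of the annotation (25.3%). They made up 29 of the 115 units in which such a gene stood with another gene. Member hosts were longer than other members, with a median of 1983 bp (range 1027 to 4677 bp) against 1146 bp for the 63 members without a snoRNA gene. They were short beside the 79 other coding hosts, whose median was 9148 bp.

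Most hosts carried few. There were 14 hosts with 1 snoRNA gene, among them RpL10Ab, RpL11, RpL15, RpL27A, RpL30, RpL36A, RpL4, RpL5, RpL7A, RpS29, RpS3A, RpS6 and RpS9. A further 7 held 2, among them RpL13A, RpL14, RpL22, RpS12 and RpS20. RpL23A and RpS4 held 3 each, RpL17 and RpL3 held 4 each, and RpL28 and RpS16 held 5 each. RpS7 held 7 (3R from 30206447 to 30209020, minus strand) and RpS5a held 14. These last 2 genes thus held 21 of the 73.

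By name, 42 of the 73 (57.5%) were pseudouridylation guides and 19 (26.0%) were methylation guides. By host the kinds were closer: the 42 stood in 14 member units and the 19 in 12. In other units 73 (34.0%) were named as pseudouridylation guides and 88 (40.9%) as methylation guides of 215. Another 46 of those 215 had names that give no kind, against 2 of the 73 in member units, so the order of the kinds in other units is not settled by name. In member units 7 were classed as orphan C/D and 3 as orphan H/ACA snoRNAs, which have no target in their name. The 7 include snoRNA:CD-24 of RpS3A, whose name gives C/D without the orphan prefix Or. The targets named were 28S ribosomal RNA for 45 and 18S for 16. The shares were closer to each other without RpS5a and RpS7: 21 of 52 (40.4%) were pseudouridylation guides and 19 (36.5%) methylation guides. The 5 hosts on X held 22 snoRNA genes, of which 20 (90.9%) were pseudouridylation guides and 0 methylation guides. The 24 hosts elsewhere held 22 pseudouridylation guides (43.1%) and 19 methylation guides (37.3%) of 51. RpS7 alone held 7 of those 22 pseudouridylation guides, so the order of the kinds elsewhere rests on it. Without RpS5a, the X hosts had 6 pseudouridylation guides of 8 and 0 methylation guides. Those 6 all stood in RpL17 and RpL22. The contrast of X with elsewhere thus rests on few hosts and was not tested.

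**Figure D3:**
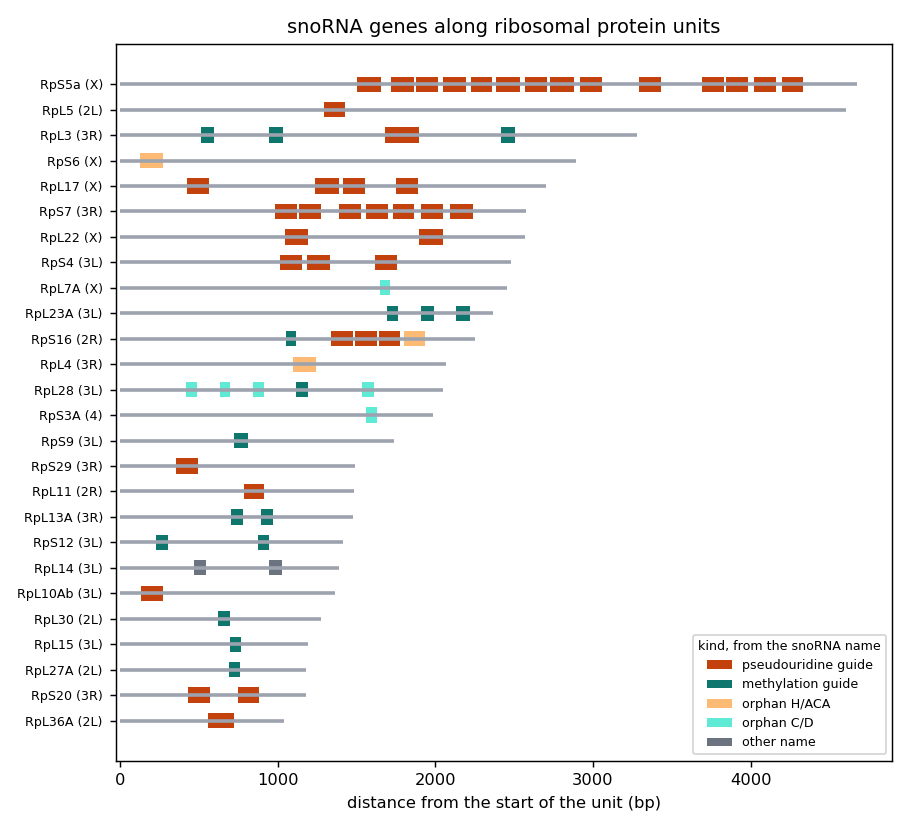
The snoRNA genes in 26 of the 29 host units, each drawn from the unit's start at 0 bp and coloured by the kind of guide in its name. RpS5a carries 14, all pseudouridylation guides, between 1505 and 4196 bp from its start.

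RefSeq gave positions for 72 of the 73. Methylation guides had a median length of 77 bp (46 to 93 bp) and pseudouridylation guides 140 bp (130 to 220 bp). The 72 began a median of 1365 bp from the unit start (128 to 4196 bp) and ended a median of 843.5 bp before its end (149 to 3179 bp). Their middle lay at a median of 57.0% of the unit's length (6.88% to 91.9%). These medians pool all hosts: RpS5a and RpS7 held 21 of the 72, and all those of RpS5a began at 1505 bp or further. In hosts of several, the 44 gaps between successive snoRNA genes had a median of 113 bp (10 to 707 bp). The medians were 34 bp over the 13 gaps in RpS5a (10 to 256 bp), 38.5 bp over the 6 in RpS7 (14 to 114 bp) and 17.5 bp over the 4 in RpS16 (11 to 223 bp). Over the 21 gaps in other member hosts the median was 287 bp (25 to 707 bp).

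Many of these genes belonged to lettered series (a, b, c) of 1 name. Member units held 13 such series, 12 of them within a single host, and 11 of the 12 were named for a target site in ribosomal RNA. Series found only in other units are not given here, so whether member hosts differ was not tested. RpS5a held 6 copies of snoRNA:Psi28S-1135, 4 of snoRNA:Psi28S-1192 and 3 of snoRNA:Psi18S-1854, beside snoRNA:Psi28S-2876. RpS7 held 5 of snoRNA:Psi18S-1377. RpS16, RpS4 and RpL23A held 3 each, of snoRNA:Psi28S-1175, snoRNA:Psi28S-3327 and snoRNA:Me28S-A2634 in that order. Series of 2 stood in RpS12, RpL13A, RpL17 and RpL14, among others. The exception was snoRNA:Or-CD11, with 3 copies in RpL28 and 1 in the unit of Uhg8, a snoRNA host gene.

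Counting partners of any kind, 33 members (35.9%) shared a unit with another gene, against 8.17% of other coding units. The 4 without a snoRNA gene differed from each other. RpS27A shared its start with Ip259, a coding gene of 1259 bp. RpL7-like shared its unit with CG34164, which began 22 bp inside it. RpS28-like, a gene of 424 bp, began 1405 bp inside the 1829 bp unit that opens with CG3769. RpS23 held the microRNA gene mir-308, 763 bp from the start of the unit. Among hosts, RpL23A also shared its unit with Uhg7, which began 1347 bp inside it, and RpL22 with CR42491, 1320 bp inside. The span of Uhg7 took in all snoRNA genes of the RpL23A unit. That of CR42491 took in snoRNA:Psi18S-531 of the RpL22 unit and not snoRNA:Psi28S-2179. The RpS6 unit also held the pseudogene CR33222, which began 29 bp inside and ran 1186 bp past the end of RpS6. RpS6 and RpS28-like were the 2 members whose own bounds differed from those of the unit. For the other 90 the unit began and ended with the ribosomal protein gene.

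A divergent start is taken here as an opposite-strand start upstream of the unit's start, at most 500 bp from start to start. Of 92 members, 37 (40.2%) had one, against 27.1% of other coding units. Starts of units that overlap head to head are not upstream and do not count here. Such overlaps were found at 1.09% of members and 4.62% of other coding units. The shares were close within 100 bp, at 6.52% of members and 5.53% of other coding units. They were further apart from over 100 to 500 bp (33.7% against 21.5%) and from over 500 to 1000 bp (21.7% against 9.20%). Within 1000 bp, 57 members (62.0%) had a divergent start, against 36.3%. The median distance in the 37 pairs was 269 bp (30 to 491 bp), against 245 bp for other coding units. Partners were coding in 35 of 37, a share close to the 3275 of 3508 for other coding units. The exceptions among members were CR44966 at RpL22 (158 bp) and CR44814 at RpL12 (465 bp). On X, 4 of 14 members (28.6%) had a start within 500 bp and 11 (78.6%) within 1000 bp, against 42.3% and 59.0% of the members elsewhere. The direction thus changed with the distance chosen, and shares of other coding units on X are not given here.

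**Figure D4:**
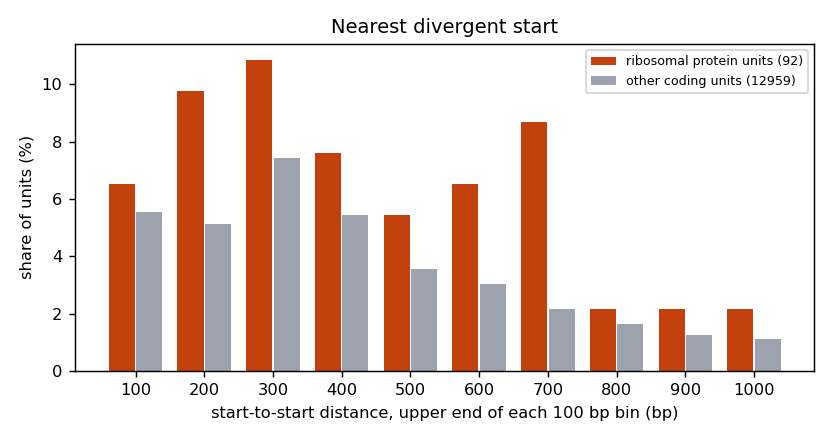
Share in percent of members and of other coding units whose nearest divergent start falls in each 100 bp bin of start-to-start distance, up to 1000 bp. In the first bin the shares are 6.52% and 5.53%, and in the bin from over 600 to 700 bp they are 8.70% and 2.17%.

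The partners within 100 bp were of varied kinds. RpL7 and Ripalpha, a replication protein A interactor, started 30 bp apart. RpS15Ab started 36 bp from Lsm10, a component of the U7 particle that processes histone mRNA. RpS16 started 78 bp from CG4294. RpL13 started 84 bp from Dref, which encodes the factor that binds the DNA replication-related element found in many housekeeping promoters. RpLP0-like started 87 bp from 14-3-3zeta, an adaptor that binds phosphorylated proteins. Slightly further out, RpL14 lay 127 bp from Nelf-E, a subunit of the pausing factor NELF, and RpS28a 194 bp from Axn, the Axin scaffold of Wnt signalling.

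Opposite-strand overlaps of at least 1 bp were found at 27 members (29.3%), against 39.8% of other coding units. Overlaps of transcript ends made up most of them: 22 members (23.9%) overlapped tail to tail, close to the 22.0% of other coding units. These tail overlaps were short, with a median of 19 bp (3 to 307 bp) against 82 bp for other coding units. Of the 22, 17 (77.3%) were under 100 bp, against 57.1% of the tail overlaps of other coding units. The longest were RpL23A with CG7974 (307 bp), RpL24 with CG7099 (273 bp) and RpL30 with CG31793 (204 bp). Other arrangements were rare. RpL37A alone overlapped head to head, by 153 bp with CR45305 (1.09% of members, against 4.62%). RpL41 lay wholly within the unit of NaCP60E, a sodium channel gene, and RpS10a within that of tau, which encodes a microtubule-binding protein (2.17%, against 8.32%). RpS9 and RpL3 enclosed CR45874 (873 bp) and CR31144 (616 bp).

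The set held 9 pairs of genes whose names differ in a final a or b, and 6 pairings with a -like gene. Capital letters mark different proteins, so RpL37A on 2L is no copy of RpL37a on X. In 7 pairs 1 copy lay on X and the other on an autosome, with RpS28b paired with RpS28a. The eighth such pairing, RpS28b on X with RpS28-like on 2L, ran the other way by unit length (1039 against 1829 bp, the second shared with CG3769). The X copy had the longer unit in 7 of 7 pairs without it, by 1.69 to 4.13-fold. The median was 1776 bp for X copies and 724 bp for autosomal copies, and the median difference was 1.56 on the log2 scale. RefSeq listed more transcripts for the X copy in 6 of 7, and 5 of the autosomal copies had 1 transcript. The comparison was not tested.

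RpS5a on X (4677 bp, 14 snoRNA genes) and RpS5b on 3R (1132 bp, none) were the most unequal of these 7, and RpS5b is known for its germline expression. RpL37a had 1498 bp on X and RpL37b 422 bp on 2R. RpS28b had 1039 bp on X and RpS28a 304 bp on 3R. RpS10b had 1776 bp and 4 RefSeq transcripts on X, and RpS10a 604 bp and 1 transcript on 3R. RpS15Aa had 2069 bp and 5 transcripts on X, and RpS15Ab 724 bp and 1 transcript on 2R. RpL22 had 2571 bp on X and RpL22-like, a copy known from the germline, 1284 bp on 2R, with 1 transcript each. RpS19a had 1356 bp on X and RpS19b, also known from the germline, 802 bp on 3R. The X copy bears the letter a in 4 of these pairs and b in RpS10 and RpS28.

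**Figure D5:**
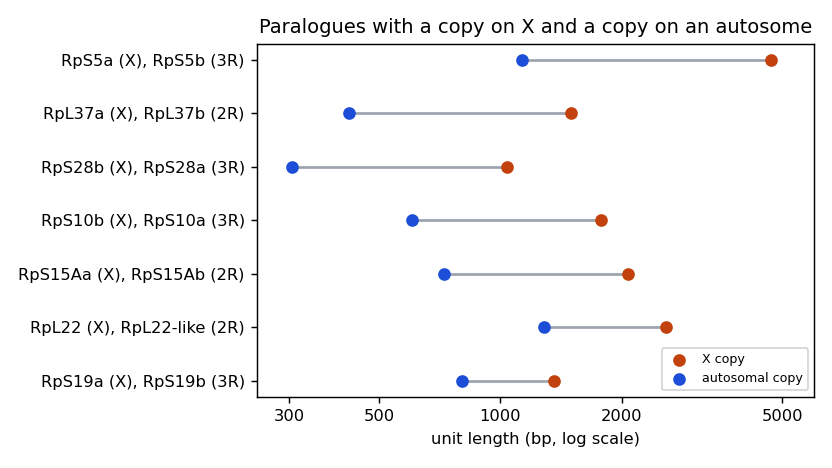
Unit length in bp on a log axis for the X copy and the autosomal copy of 7 pairs split between X and an autosome, joined by a line. The X copy is longer in the 7 drawn, by 1.69 to 4.13-fold, and the pairing of RpS28b with RpS28-like, not drawn, runs the other way by unit length.

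The remaining pairs were not split between X and an autosome, apart from RpS28b and RpS28-like. RpS14a and RpS14b, both on X, had 936 and 895 bp and 2 RefSeq transcripts each. RpL34a and RpL34b, both on 3R and 16658041 bp apart, had 848 and 990 bp. RpL10Aa on 3R had 784 bp, and RpL10Ab on 3L had 1361 bp with 1 snoRNA gene. Among -like genes, RpL24-like had 843 bp beside 1445 bp for RpL24, and RpLP0-like had 1073 bp beside 1621 bp for RpLP0. RpL7-like had 1926 bp beside 1318 bp for RpL7. The yeast counterparts of RpL24-like, RpLP0-like and RpL7-like (Rlp24, Mrt4 and Rlp7) act in ribosome assembly. The RpS28-like gene on 2L had 424 bp, beside 1039 bp for RpS28b and 304 bp for RpS28a, in a unit shared with CG3769 that makes its unit length no fair comparison. No -like unit held a snoRNA gene (0 of 5).

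The same measures were taken for other genes of translation. The 73 units of mitochondrial ribosomal protein genes (mRpL and mRpS) had a median of 910 bp (390 to 13391 bp) and 1 transcript. Of them, 51 (69.9%) had a divergent start within 500 bp, 42 (57.5%) overlapped an opposite-strand unit, and none (0) held a snoRNA gene. The 53 units of translation factor genes (eIF, eEF and eRF) had a median of 2279 bp (736 to 45884 bp). Of those, 19 (35.8%) had a divergent start and 1 (1.89%) held a snoRNA gene. Shares on X were 15.2% of members, 15.1% of mitochondrial ribosomal protein units and 13.2% of translation factor units. Small-subunit proteins whose names fall outside the pattern are encoded by sta, the fly RpSA gene, and Rack1. The sta unit had 1617 bp on X (1481797 to 1483413, minus strand) with 2 snoRNA genes, and started 66 bp from inc. Rack1 had 1969 bp on 2L (7825347 to 7827315, minus strand) without a snoRNA gene, and started 335 bp from mts, the catalytic subunit of protein phosphatase 2A.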

How the data were processed

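The deposited file is the authors' annotation of transcription units, written with rtracklayer 1.48.0 per the file headers. It gives chromosome, start, end, strand, length, gene identifiers and transcripts per unit, and no read count, coverage or other value of a sample. Per the submitters' processing notes the genome was dm6, and the tools included STAR 2.7.4a, cutadapt 2.8, DESeq2 and SAMtools 1.20, none of whose values were used here. How the authors joined genes into units is not given in the sources used here. Male Control replicate 1 was not analysed here, and 0 columns of per-sample values were left unused.

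Current symbols, gene types, gene bounds and transcripts per gene came from RefSeq genes on assembly Release 6 plus ISO1 MT, which matched 17639 of 17698 genes. Of the 92 members, 90 matched by symbol and 2 by synonym (RpL37a as RpL37-1, RpL37b as RpL37-2). Other coding units are all units with a RefSeq coding gene and no member. A divergent start was sought up to 500 bp upstream, and an overlap was at least 1 bp. The kind of snoRNA was read from its name. Promoter motifs and protein identity were planned and not computed, since no promoter or protein sequence was used here. Python 3.11.15, NumPy 2.4.6, SciPy 1.17.1 and matplotlib 3.10.9 were used, and the code was tested on a made-up annotation.

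The named members are those that share a unit, belong to a paralogue pair, end in -like, lie on X or 4, or have bounds that differ from the unit. The rule also takes the 5 longest, the 5 shortest and the 5 with most transcripts, those with a divergent start within 100 bp and pairs under 50000 bp apart. A few members are counted in every total and not reported by name here. Other members named for their roles were chosen after their values were seen. The members and lists were chosen with earlier results of these data known.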

Additional observations from a re-analysis of the deposited data

How the results depend on the processing

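Over 9 results, 27 alternative settings were computed, of which 22 kept the value within the limits set for it. In units of 1 gene the median member length was 1119 bp, against 1325.5 bp for all, and the difference between large and small subunit turned to 0.087 on the log2 scale, against -0.065. Both changes follow from leaving out hosts and other joint units. The share of members with a divergent start was 18.5% within 250 bp and 62.0% within 1000 bp, against 40.2% within 500 bp. For other coding units it was 13.97% within 250 bp, 36.3% within 1000 bp and 27.1% within 500 bp. Among these distances the gap between the sets was narrowest within 250 bp. Within 100 bp, which was not among these settings, the shares were closer still, at 6.52% of members and 5.53% of other coding units. Requiring at least 100 bp of overlap lowered the share of members with an opposite-strand overlap to 10.9%, against 29.3%. The share of other coding units at that overlap is not given here, so the sets were not compared at it. The share with a snoRNA gene was 30.4% by RefSeq gene type, and also 30.4% by overlap with RefSeq snoRNA genes on either strand. That last setting was chosen after seeing the data, in place of a same-strand overlap that was not run because the table used gives no strand. The settings for the X and autosomal pairs, for snoRNA hosts without -like genes and for divergent starts in units of 1 gene were also chosen after seeing the data. Promoter motif settings were not run, since no promoter sequence was used here. No paired analysis was possible because the annotation has no sample values, and for the same reason no replicate could be left out. Gene models limit every value: a start is an annotated start, not one measured in these embryos.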

Other observations

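Synonyms in the Minute style (M followed by a chromosome number) were chosen for a look after the RefSeq names had been seen. They were listed for 29 of 17872 RefSeq genes. Of those 29, 26 were members (28.3% of the 92). The 26 comprised 13 of the 54 large-subunit members and 13 of the 38 small-subunit members. The other 3 genes were Sam-S, dpp and eIF2alpha. Members with such a synonym made up 4 of 14 on X, 8 of 19 on 2L, 5 of 21 on 2R, 3 of 14 on 3L, 5 of 23 on 3R and the 1 on chromosome 4. No -like gene had one (0 of 5). Their median unit length was 1391.5 bp, against 1315 bp for the other 66 members. A synonym records the history of a gene's naming and does not show that other members lack the phenotype.

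A few members lay near another gene of translation, and the cases below are examples. No share of other units near such genes is given, so whether members differ was not tested. RpL28 and eIF1, a factor of start codon choice, were a divergent pair with starts 381 bp apart. On the same strand, mRpL27 ended 230 bp upstream of RpL27A. On 3R, RpS25 and RpL3 pointed away from each other, with the divergent partner CG4820 248 bp from RpS25 and CG6693 255 bp from RpL3.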
